A study of Mus musculus with 19 samples.

Results

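The genes described are 10 members of the BCL2 family, Mcl1, Bcl2, Bcl2l1, Bcl2a1b, Bcl2a1d, Bax, Bak1, Bcl2l11, Bbc3 and Pmaip1, chosen by name. All 10 had a row among the 50854 genes of the count table, and all 10 passed the filter of a mean of at least 1 read that left 18652 genes for testing. The 19 libraries used were made from bone marrow cells of female REP mice aged 8 to 12 wk, in which a fluorescent reporter marks each of several chemokine receptors, CCR1 and CCR2 among them. Monocytes were sorted and parted by their reporters into CCR2+ve monocytes and CCR1/2+ve monocytes, which carry both receptors. The paper gives a CD11b+ Ly6C++ Ly6G- SiglecF- gate for the monocytes it sorted from resting mice for culture. Its main text does not state the gate used for these libraries. The resting groups were CCR2+ve (4 libraries) and CCR1/2+ve (4 libraries), and the inflamed groups CCR2+ve (4 libraries), CCR1/2+ve (3 libraries) and 4 libraries labelled inflamed CCR1, whose sort is not described in the sources used here. Every group carried the reporter alleles. Inflamed mice had borne osmotic pumps that released IL-3, IL-6, GM-CSF and IFN-α for 7 d. Whether the resting mice carried a pump without cytokines, and whether 1 library is 1 mouse or a pool, are not given in the sources used here, so p values measure the spread between these libraries, which may be technical.

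The BCL2 family decides whether the outer mitochondrial membrane is opened, the step that commits a cell to intrinsic apoptosis. BAX and BAK are the effectors that form the pores, and the antiapoptotic proteins MCL1, BCL2, BCL-XL (encoded by Bcl2l1) and A1 (encoded by the Bcl2a1 genes) hold them in check. The BH3-only proteins BIM (Bcl2l11), PUMA (Bbc3) and NOXA (Pmaip1) bind the antiapoptotic proteins, and NOXA is known for its preference for MCL1 and A1. MCL1 is a protein of short life, and A1 is known as a survival gene induced in leukocytes by inflammatory signals. PUMA and NOXA are known targets of p53, whereas BIM is transcribed under FOXO factors.

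Between 22268658 and 30502009 reads were counted on genes per library (median 23706580), and levels are given as CPM, counts scaled by library size with TMM factors over all 19 libraries. Ccr2 was at 1218 ± 181 CPM (SD, n = 4) in resting CCR2+ve monocytes, 633 ± 109 (n = 4) in resting CCR1/2+ve, 1251 ± 125 (n = 4) in inflamed CCR2+ve and 1240.5 ± 135 (n = 3) in inflamed CCR1/2+ve monocytes, against 5.82 ± 2.56 (n = 4) in the libraries labelled inflamed CCR1. Ccr1, after which that last group is labelled, was lowest there, at 38.0 ± 4.60 CPM, against 75.1 ± 7.13 to 310.0 ± 102 in the other groups. The summed level of 14 monocyte genes was 8713 to 13539 CPM in these 4 libraries and 35194 CPM or more in every other library. Lyz2 made up most of it, at 5990 to 10630 CPM in these 4 and 22291 to 42280 CPM in the others. Ly6c2, at 1366 to 1484 CPM, overlapped inflamed CCR2+ve libraries (1246 to 2097 CPM). Summed levels of 5 early granule genes (55123 to 61854 CPM) and 12 mature neutrophil genes (104964 to 153571 CPM) in them stood above the other 15 libraries, in which the highest sums were 6794 and 3739 CPM. Ngp made up the largest part of the second sum, at 69730 to 100780 CPM. Against inflamed CCR2+ve monocytes 11 of these 12 genes were higher and Mmp8 was lower, at 5.18 to 12.2 against 934 to 1132 CPM. The name of that list does not give the stage of the cells. The libraries labelled inflamed CCR1 went against their label in Ccr1 mRNA and stood apart in the sum of the monocyte genes. Their values are given last and as those of libraries so labelled.

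**Figure D1:**
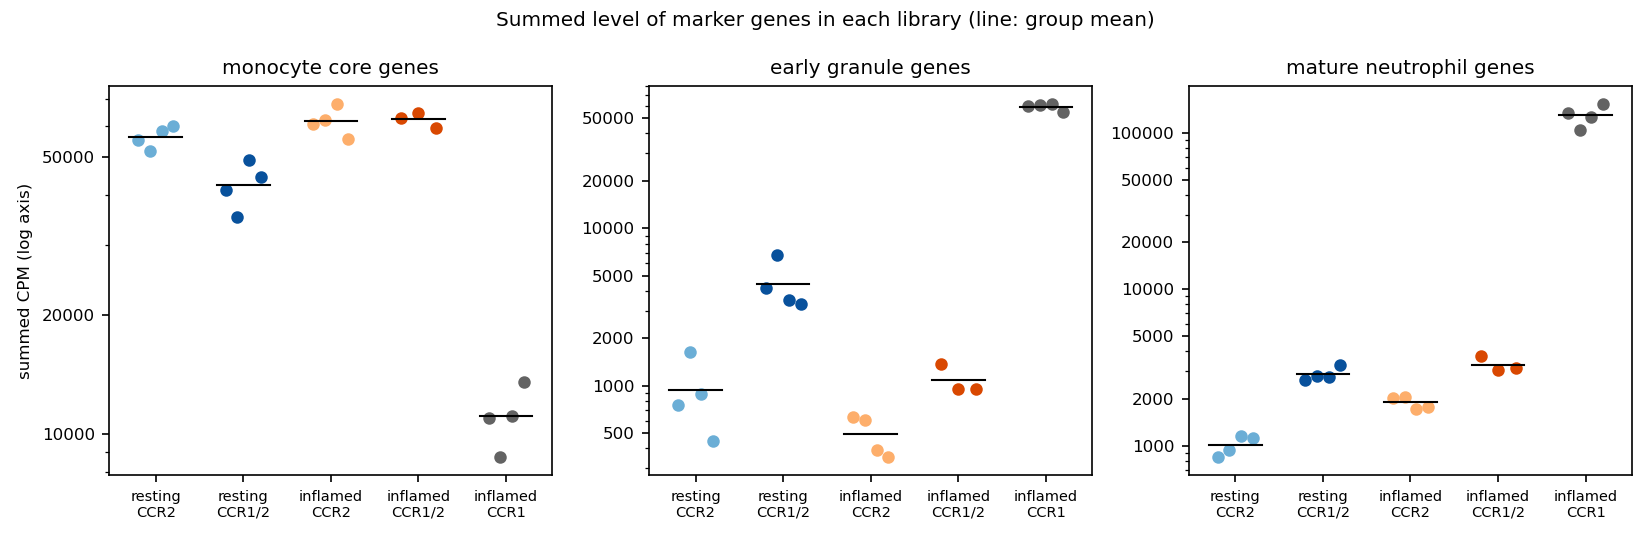
Summed CPM (log axis) of 14 monocyte, 5 early granule and 12 mature neutrophil genes, with 1 point per library and a line at the group mean. The 4 libraries labelled inflamed CCR1 sit below all others for the monocyte genes, at 8713 to 13539 CPM, and above all others for the granule and neutrophil genes.

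Members of the family meet through the BH3 motif, whose core is a leucine, 3 residues, a glycine or alanine and an aspartate. The windows below, shown so that the shared core can be compared across survival genes, effectors and BH3-only genes, hold 48 coding bases each, 5′ to 3′ on the coding strand, from the transcripts of GENCODE M21 on GRCm38, with the 18 bases of the core in capitals. Each core was the only match in the whole coding sequence of that gene.
Mcl1: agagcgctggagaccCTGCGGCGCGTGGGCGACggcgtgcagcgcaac
Bcl2: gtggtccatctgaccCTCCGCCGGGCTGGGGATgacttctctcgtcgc
Bcl2l1: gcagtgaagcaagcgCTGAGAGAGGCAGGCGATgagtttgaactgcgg
Bcl2l11: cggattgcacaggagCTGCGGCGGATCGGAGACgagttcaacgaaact
Bax: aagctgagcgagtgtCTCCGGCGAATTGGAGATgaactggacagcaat
Bak1: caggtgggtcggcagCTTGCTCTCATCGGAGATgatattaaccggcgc
Bbc3: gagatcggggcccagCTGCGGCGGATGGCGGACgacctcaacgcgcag
The windows lie in single exons, at chr3:95659421-95659468 on the plus strand (Mcl1), chr1:106712569-106712616 on the minus strand (Bcl2), chr2:152829691-152829738 on the minus strand (Bcl2l1), chr2:128147135-128147182 on the plus strand (Bcl2l11), chr7:45465991-45466038 on the minus strand (Bax), chr17:27022525-27022572 on the minus strand (Bak1) and chr7:16313758-16313805 on the plus strand (Bbc3). No match lay in the coding sequences of Bcl2a1b and Bcl2a1d, which says only that these letters are not there, and Pmaip1 was not searched.

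Bcl2a1b and Bcl2a1d are copies of 1 gene on chromosome 9, with Bcl2a1a as another copy, and their sequences bear on how far their counts can be told apart. The 3 coding sequences are 516 bases long and differ at 12 positions, 7 of which lie in the first 120 bases, printed here with the differing positions in capitals.
Bcl2a1a: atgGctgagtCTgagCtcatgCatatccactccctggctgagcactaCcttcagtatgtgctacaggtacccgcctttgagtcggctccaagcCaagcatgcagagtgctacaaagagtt
Bcl2a1b: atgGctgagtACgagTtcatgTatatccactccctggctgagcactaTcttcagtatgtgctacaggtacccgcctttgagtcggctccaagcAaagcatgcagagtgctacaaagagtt
Bcl2a1d: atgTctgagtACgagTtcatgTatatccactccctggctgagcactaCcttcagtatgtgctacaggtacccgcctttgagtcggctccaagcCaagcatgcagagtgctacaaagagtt
These windows lie at chr9:88957051-88957170 on the plus strand, chr9:89199360-89199479 on the plus strand and chr9:88731600-88731719 on the minus strand. Of the stretches of 35 bases in the exons, 86.1% of those of Bcl2a1b and 87.1% of those of Bcl2a1d occur in another gene too, and the authors kept reads that aligned to 1 place, so each copy was counted from the stretches that are its own. The values of single copies are therefore uncertain, and the sum of Bcl2a1a, Bcl2a1b and Bcl2a1d, called the Bcl2a1 sum, is given beside them. Reads that fit more than 1 copy are missing from the sum too, and it was divided by the mean full exon length of the copies. Its level per kb may therefore be understated by an unknown amount.

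Divided by exon length, the order of the family differed between resting and inflamed groups. Levels of different genes can be set side by side only roughly, as the length joins the exons of all transcripts. Other gene models overlap 25.5% of the exonic bases of Bak1 and 12.2% of those of Bax. Levels were not corrected for GC content, which runs from 41.6% (Pmaip1) to 67.1% (Bbc3). The Bcl2a1 sum has the further limit given above. In resting CCR2+ve monocytes Bax was highest at 71.0 ± 4.60 CPM per kb (SD, n = 4), followed by Mcl1 at 61.6 ± 10.1, whose range overlapped that of Bax. Pmaip1 at 20.9 ± 5.25 and Bak1 at 19.7 ± 1.18 overlapped each other, as did neighbours in the order from Bbc3 (7.05 ± 1.5) through the Bcl2a1 sum (5.18 ± 2.24) and Bcl2l1 (4.33 ± 0.442) to Bcl2l11 (3.96 ± 0.463), and Bcl2 was lowest at 0.317 ± 0.0670. In resting CCR1/2+ve monocytes Bax (61.8 ± 5.68), Mcl1 (41.4 ± 7.55), Bak1 (16.6 ± 3.12) and Pmaip1 (7.95 ± 1.37) followed each other without overlap. In inflamed CCR2+ve monocytes Bak1 stood first at 120.1 ± 11.9 CPM per kb, above Mcl1 (59.9 ± 12.8) and Bax (51.4 ± 4.60), which overlapped. The same 3 genes led inflamed CCR1/2+ve monocytes in that order, at 129 ± 16.1, 60.5 ± 3.16 and 53.1 ± 11 CPM per kb (n = 3), and Bcl2 was again lowest at 0.104 ± 0.0297. In the libraries labelled inflamed CCR1, Bak1 (83.3 ± 11.9) was followed by Bax (25.8 ± 3.86) and Bcl2l1 (24.9 ± 3.69), which overlapped, with Mcl1 at 9.80 ± 1.00.

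Among the survival genes Mcl1 held 86.1 ± 2.84% (SD, n = 4) of the summed level per kb of Mcl1, Bcl2, Bcl2l1 and the Bcl2a1 sum in resting CCR2+ve monocytes and 82.2 ± 1.44% (n = 4) in resting CCR1/2+ve monocytes. Its share was 58.3 ± 6.66% (n = 4) and 58.8 ± 4.29% (n = 3) in the inflamed CCR2+ve and inflamed CCR1/2+ve monocytes, in which the Bcl2a1 sum held 27.2 ± 6.92% and 26.7 ± 3.28% and Bcl2l1 14.3 ± 1.24% and 14.3 ± 1.78%. No resting library overlapped an inflamed monocyte library in the share of Mcl1. The ratio of Mcl1 to Bcl2l1 per kb was 14.4 ± 3.28 and 9.44 ± 1.25 in resting CCR2+ve and CCR1/2+ve monocytes, 4.08 ± 0.565 and 4.16 ± 0.707 in their inflamed counterparts, and 0.401 ± 0.0789 in the libraries labelled inflamed CCR1, where Bcl2l1 held 58.5 ± 3.62% of the sum. Between the effectors, the ratio of Bak1 to Bax per kb was 0.277 ± 0.0107 and 0.267 ± 0.0327 in the resting groups and 2.34 ± 0.168, 2.53 ± 0.729 and 3.28 ± 0.718 in the inflamed CCR2+ve, inflamed CCR1/2+ve and inflamed CCR1 groups. As the Bcl2a1 sum per kb may be understated, the shares of the other survival genes may be overstated. These shares and ratios carry the limits of levels per kb given above, are descriptions and were not tested.

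**Figure D2:**
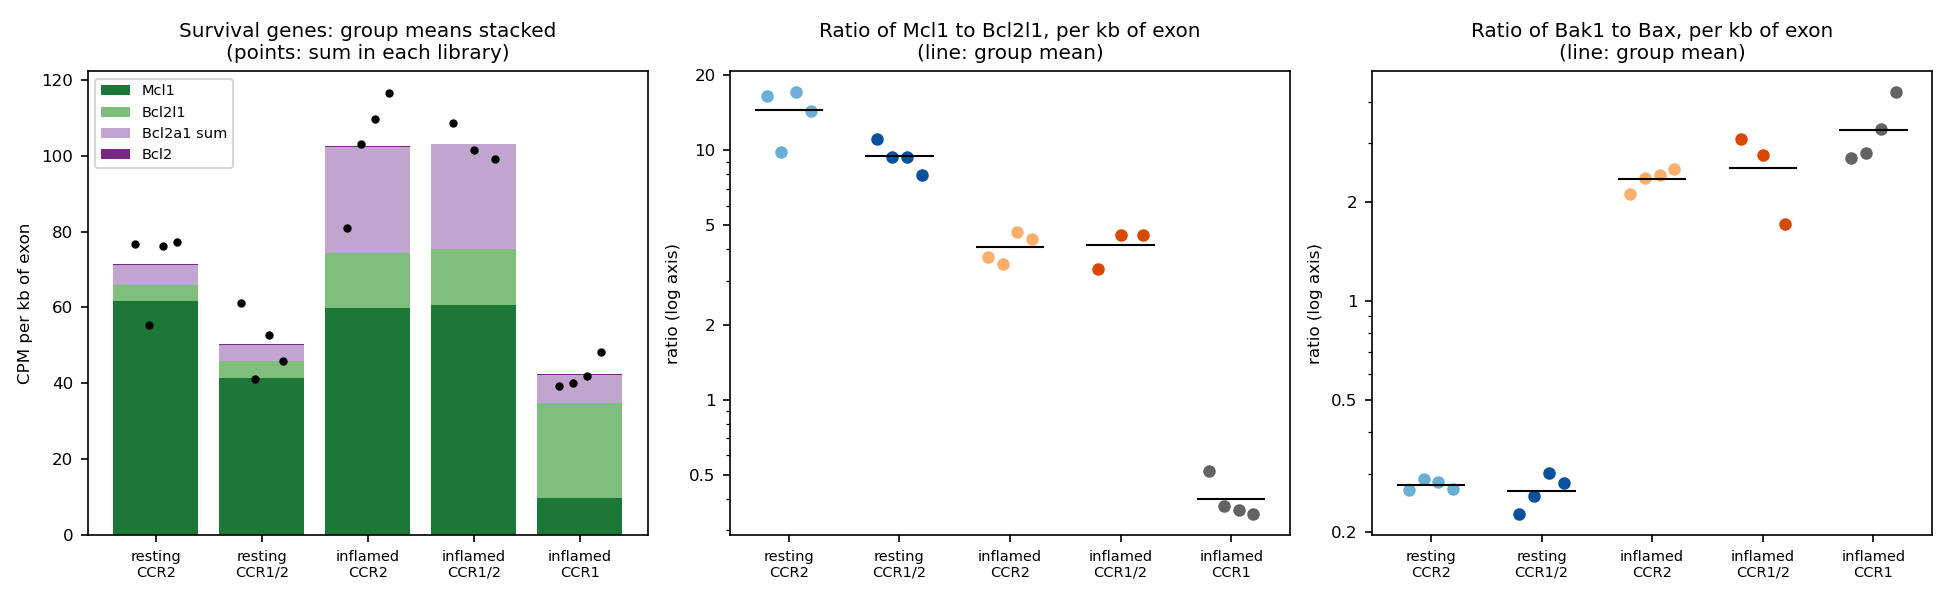
Left, group means of the survival genes in CPM per kb of exon, stacked, with a point for the sum in each library. The part of the Bcl2a1 sum may be understated. Middle and right, the ratios of Mcl1 to Bcl2l1 and of Bak1 to Bax per kb in each library (log axes, line at the group mean). Mcl1 exceeded Bcl2l1 in all 15 monocyte libraries and was below it in the 4 libraries labelled inflamed CCR1, while Bak1 exceeded Bax in all 11 inflamed libraries and in none of the 8 resting ones.

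Resting CCR1/2+ve and CCR2+ve monocytes were compared to ask whether cells with both receptors differ from those with CCR2 alone. The CPM ranges did not overlap for 4 members, each lower in CCR1/2+ve monocytes (Bcl2l11, Bax, Bbc3 and Pmaip1), as for 12% of all genes. Of the 10 members, 4 were lower in CCR1/2+ve monocytes and 0 higher at an adjusted p below 0.05, where 8.44% of all genes tested were lower and 8.44% higher. The 4 were the 3 BH3-only genes Pmaip1, Bbc3 and Bcl2l11 and the survival gene Mcl1, and Pmaip1 and Bbc3 were lower by at least 2-fold, as were 1.9% of all genes. The median log2 fold change of the members was −0.40, beside 0.032 over all genes tested. Beside these values, all 5 early granule genes had higher levels in the CCR1/2+ve libraries, summing to 3291 to 6794 CPM against 445 to 1643, and 6 of 14 monocyte genes were lower, with a summed level of 35194 to 49043 CPM against 51728 to 59885. Of 12 mature neutrophil genes 6 were higher and 1 lower, with sums of 2634 to 3288 CPM against 842 to 1146. Of 9 dendritic cell genes 4 were lower, with sums of 39.5 to 137 CPM against 240.2 to 714. Of 8 tissue macrophage genes 5 were higher and 1 lower, with sums of 47.2 to 129.5 CPM against 37.3 to 69.5. Mitochondrial genes held 0.585 to 0.987% of the reads against 0.347 to 0.590%. The part of these markers in the members' differences was not tested, and in bulk RNA fewer cells of a type and less RNA per cell cannot be told apart. In 1 fit of all 19 libraries the share of higher calls among all genes called was 39.5% in place of 50.0%.

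Most of the family differed between the inflamed and the resting state in both populations. Whether resting and inflamed libraries were prepared together is not given in the sources used here. Inflammation and a difference in preparation therefore cannot be told apart. In CCR2+ve monocytes 5 of the 10 members were higher and 3 lower in the inflamed state, where 21.9% of all genes were higher and 25.9% lower, and in CCR1/2+ve monocytes 7 were higher and 2 lower, where 20.6% and 25.4% of all genes were. Bak1, Bcl2a1d, Bcl2a1b, Bcl2l1 and Bcl2l11 were higher and Bbc3 and Bcl2 lower in both comparisons. Bax was called lower in CCR2+ve monocytes and Pmaip1 and Mcl1 higher in CCR1/2+ve monocytes. The difference between the populations in these responses was itself tested with edgeR and passed for 0 of the 10 members and for 0.397% of all genes. At an unadjusted p below 0.05 that interaction held 2 members, Bbc3 at 1.11 and Pmaip1 at 1.02 on the log2 scale. DESeq2 also called 0 members, and of all 18652 genes it called 371 higher and 163 lower. With a correction for GC content the share of higher calls among all genes called was 57.2% in place of 45.8% in CCR2+ve monocytes and 57.5% in place of 44.8% in CCR1/2+ve monocytes. Erythroid genes fell with inflammation (8 of 9 lower in CCR2+ve monocytes, with sums of 1.42 to 4.65 CPM against 84.3 to 250.5, and 6 of 9 in CCR1/2+ve monocytes), and basophil and eosinophil genes rose (6 of 6 and 5 of 6, with sums of 105 to 237 CPM against 2.95 to 10.6 in CCR2+ve monocytes, most of it Prss34). Early granule genes were lower (2 of 5 and 5 of 5), and mature neutrophil genes higher (8 of 12 and 7 of 12, with 2 lower in the second). Monocyte genes were 4 of 14 higher and 3 lower in CCR2+ve monocytes (sums of 55429 to 68233 CPM against 51728 to 59885). In CCR1/2+ve monocytes, in which Mcl1 and Pmaip1 were called, they were 9 of 14 higher and 3 lower (sums of 59374 to 64735 CPM against 35194 to 49043, without overlap). Dendritic cell genes were 1 of 9 higher and 5 lower in CCR2+ve and 1 higher and 4 lower in CCR1/2+ve monocytes, with inflamed sums of 136 to 668 and 34.6 to 96.2 CPM. Tissue macrophage genes were 3 of 8 higher in CCR2+ve and 2 higher and 5 lower in CCR1/2+ve monocytes, with inflamed sums of 96.0 to 154 and 48.3 to 68.1 CPM. The part of these markers in the members' changes was not tested.

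Inflamed CCR1/2+ve and inflamed CCR2+ve monocytes did not differ in any member at an adjusted p below 0.05 by edgeR's quasi-likelihood test, and 0.188% of all genes tested did. At an unadjusted p below 0.05 the count was also 0. DESeq2 called 0 members as well, and of all 18652 genes it called 141 higher and 124 lower. At such low shares 0 of 10 members says little about the family. The log2 fold changes of the members lay between −0.52 (Bcl2, SE 0.44) and 0.17 (Bcl2a1b, SE 0.32), and the CPM ranges overlapped for all 10, with 9.71% of all genes not overlapping. For Pmaip1 the log2 fold change was −0.28 (SE 0.39, adjusted p = 0.876).

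**Figure D3:**
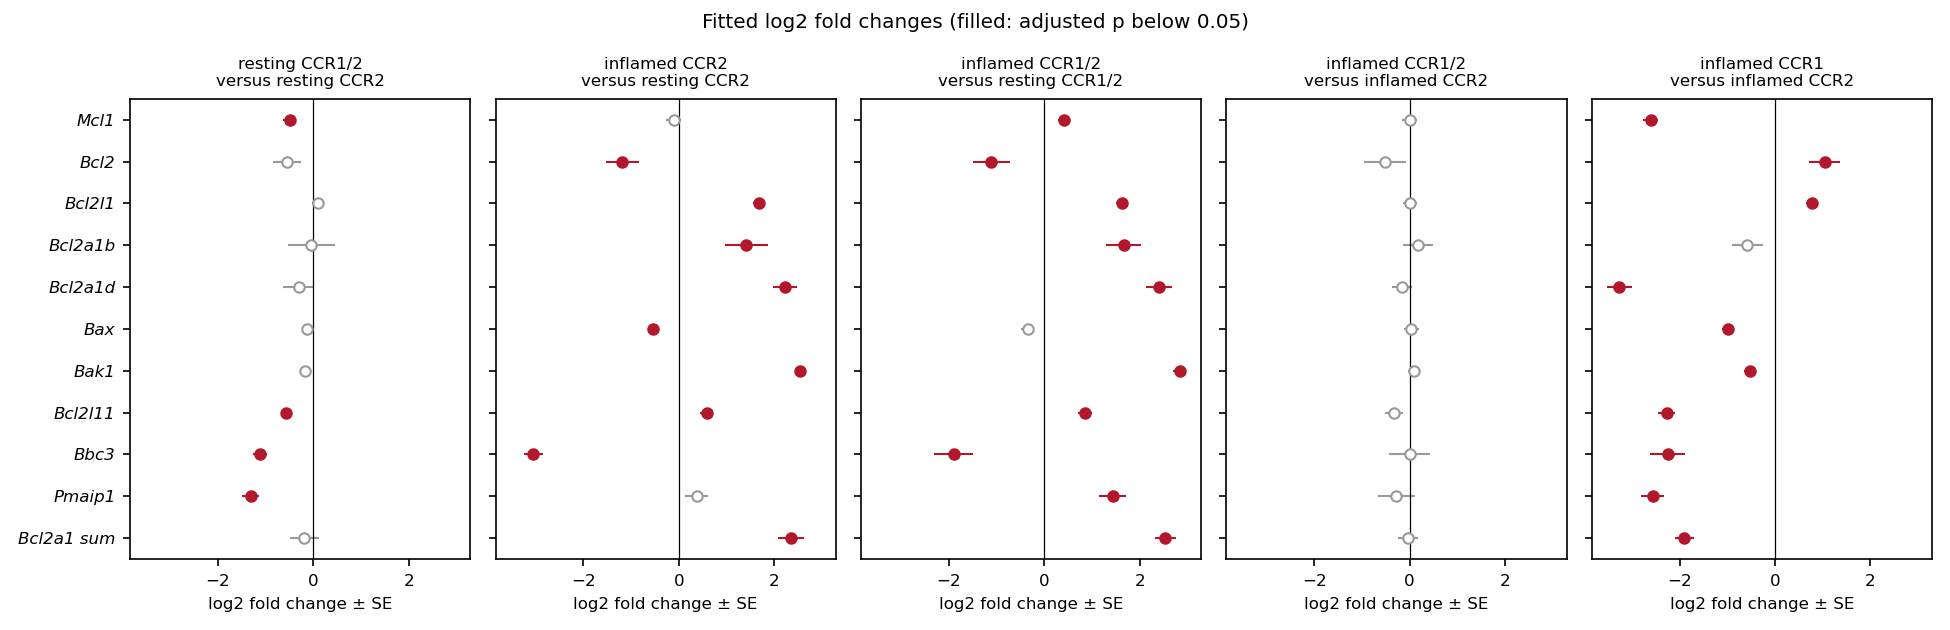
Fitted log2 fold changes of the 10 members and the Bcl2a1 sum in 5 comparisons, first group minus second, with bars of 1 SE and filled points for an adjusted p below 0.05. The panel of inflamed CCR1/2 versus inflamed CCR2 holds 0 filled points, and Bak1 has the highest value in both panels of inflamed against resting monocytes.

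Mcl1 (ENSMUSG00000038612, chr3:95658788-95663176, plus strand) had the highest level per kb of the survival genes as counted in the 4 monocyte groups. The Bcl2a1 sum beside it may be understated. It was at 219.5, 159, 233 and 229.9 CPM in resting CCR2+ve libraries and 172, 114, 152 and 128 in resting CCR1/2+ve libraries. In the inflamed state it was at 164, 171, 232 and 252 CPM in CCR2+ve and 202, 219 and 199 in CCR1/2+ve libraries. All but 1 of the resting CCR2+ve libraries were above all resting CCR1/2+ve libraries, and the inflamed CCR1/2+ve libraries were all above the resting CCR1/2+ve ones. The log2 fold change between resting CCR1/2+ve and CCR2+ve monocytes was −0.49 (SE 0.14, adjusted p = 0.0252), a call that was lost when any of 5 of the 8 libraries was left out, with adjusted p up to 0.0783. These were CCR1/2+ve replicates 2 and 4 and CCR2+ve replicates 1, 3 and 4. With the replicate number as a block, which pairs these samples, all 8 libraries gave −0.50 (adjusted p = 6.29e-05), and in 4 of 4 pairs the CCR1/2+ve library had less Mcl1. With inflammation Mcl1 rose 1.33-fold in CCR1/2+ve monocytes, 0.42 (SE 0.13, adjusted p = 0.0242), a call lost without resting replicate 4 or inflamed replicate 3, with adjusted p up to 0.0944. In CCR2+ve monocytes its log2 fold change with inflammation was −0.10 (SE 0.16, adjusted p = 0.626).

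Bcl2l1 (ENSMUSG00000007659, chr2:152780668-152831728, minus strand) encodes BCL-XL. Its levels were 17.8, 21.7, 18.4 and 21.4 CPM in resting CCR2+ve libraries and 20.9, 16.3, 21.8 and 21.5 in resting CCR1/2+ve libraries. The inflamed levels were 59.4, 65.4, 65.9 and 76.9 CPM in CCR2+ve and 81.3, 64.4 and 58.5 in CCR1/2+ve libraries. Every inflamed library was above every resting library. Bcl2l1 rose 3.21-fold in CCR2+ve monocytes, 1.68 (SE 0.13, adjusted p = 3.44e-08), and 3.09-fold in CCR1/2+ve monocytes, 1.63 (SE 0.13, adjusted p = 1.16e-06). Between the resting populations the log2 fold change was 0.094 (SE 0.11, adjusted p = 0.649).

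The A1 genes rose with inflammation. The Bcl2a1 sum was at 6.99, 3.17, 2.93 and 4.16 CPM in resting CCR2+ve libraries and 5.06, 3.33, 2.78 and 3.14 in resting CCR1/2+ve libraries. With inflammation the sum was at 16.3, 32.1, 22.9 and 21.5 CPM in CCR2+ve and 26.2, 19.4 and 23.3 in CCR1/2+ve libraries. The lowest inflamed monocyte library was above the highest resting one, at more than 2-fold. The log2 fold change of the sum was 2.35 (SE 0.27, adjusted p = 3.39e-06) in CCR2+ve and 2.54 (SE 0.23, adjusted p = 2.59e-06) in CCR1/2+ve monocytes, and −0.19 (SE 0.30, adjusted p = 0.742) between the resting populations. Of the copies, Bcl2a1d (ENSMUSG00000099974, chr9:88723285-88731914, minus strand) was at 1.44 to 2.97 CPM in resting and 7.22 to 12.2 CPM in inflamed CCR2+ve libraries, 2.23 (SE 0.25, adjusted p = 3.03e-06), and at 1.25 to 2.36 in resting and 8.48 to 10.3 in inflamed CCR1/2+ve libraries, 2.41 (SE 0.28, adjusted p = 2.12e-05). Bcl2a1b (ENSMUSG00000089929, chr9:89199209-89207827, plus strand) was counted at 0.195 to 1.00 CPM in resting CCR2+ve libraries, from 5 to 25 reads, and at 1.21 to 1.91 CPM in inflamed ones, 1.41 (SE 0.45, adjusted p = 0.0172), with 1.66 (SE 0.36, adjusted p = 0.00261) in CCR1/2+ve monocytes. Another gene model overlaps 49.1% of the exonic bases of Bcl2a1b.

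Bcl2 (ENSMUSG00000057329, chr1:106538178-106714274, minus strand), the founding member, had the lowest level per kb of the members in the 4 monocyte groups. It ranged over 2.01 to 3.32 CPM in resting CCR2+ve, 1.28 to 2.45 in resting CCR1/2+ve, 0.726 to 2.30 in inflamed CCR2+ve and 0.747 to 1.26 in inflamed CCR1/2+ve libraries. The lowest value, in inflamed CCR2+ve replicate 3, rested on 15 reads. The CCR2+ve ranges overlapped in the 2 states and the CCR1/2+ve ranges did not. Bcl2 fell in both, with log2 fold changes of −1.18 (SE 0.34, adjusted p = 0.0103) and −1.11 (SE 0.39, adjusted p = 0.0367). The second call was lost with a correction for GC content (adjusted p = 0.10) and without any 1 of 4 of the 7 libraries, resting replicates 2 and 3 and inflamed replicates 3 and 4 (adjusted p up to 0.114). The correction also moved the median of genes over 1 CPM from −0.014 to 0.27 there. Between the resting populations the log2 fold change was −0.56 (SE 0.29, adjusted p = 0.233).

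Of the effectors, Bak1 (ENSMUSG00000057789, chr17:27019810-27029009, minus strand) had the largest rise of the 10 members. It was at 43.5, 47.2, 48.5 and 50.2 CPM in resting CCR2+ve libraries and 34.1, 33.1, 48.7 and 43.4 in resting CCR1/2+ve libraries. In inflamed monocytes Bak1 was at 278, 254, 313 and 312 CPM in CCR2+ve and 321, 342 and 267 in CCR1/2+ve libraries. The inflamed monocyte libraries were all at least 5-fold above the highest resting library. The rise was 5.82-fold in CCR2+ve monocytes, 2.54 (SE 0.11, adjusted p = 1.39e-10), and 7.15-fold in CCR1/2+ve monocytes, 2.84 (SE 0.13, adjusted p = 1.36e-08). The exact two-sided permutation test gave p = 0.0286 for 4 libraries against 4 and p = 0.0571 for 3 against 4, the smallest p each design allows, of which the second cannot pass 0.05. Bak1 is among the genes that the study listed as most upregulated in these same libraries, so its rise is not independent of that list. Between the resting populations its log2 fold change was −0.18 (SE 0.11, adjusted p = 0.315). Its exons overlap those of Ggnbp1 on the opposite strand over 25.5% of their bases.

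Bax (ENSMUSG00000003873, chr7:45461697-45466898, minus strand) did not follow Bak1. It was at 107, 107, 112 and 122 CPM in resting CCR2+ve libraries and 98.5, 84.7, 106 and 101 in resting CCR1/2+ve libraries. Its inflamed levels were 86.3, 70.5, 85.5 and 81.6 CPM in CCR2+ve and 67.9, 80.7 and 102 in CCR1/2+ve libraries. The inflamed CCR2+ve libraries were all below the resting CCR2+ve ones, and those of the CCR1/2+ve monocytes overlapped. Bax fell in CCR2+ve monocytes, −0.54 (SE 0.10, adjusted p = 0.000528), and had a log2 fold change of −0.34 (SE 0.14, adjusted p = 0.0629) in CCR1/2+ve monocytes. With a correction for GC content these values were −0.018 (adjusted p = 0.903) and 0.34 (adjusted p = 0.0202), so that the first was no longer called. The same correction moved the median of genes over 1 CPM from 0.013 to 0.25 and from −0.014 to 0.27, so that Bax stayed below that median in CCR2+ve monocytes and lay close to it in CCR1/2+ve monocytes. The exons of Bax are 59.0% G and C, and another gene model overlaps 12.2% of their bases. Between the resting populations, whose ranges did not overlap, the log2 fold change was −0.12 (SE 0.075, adjusted p = 0.308).

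Among the BH3-only genes, Bbc3 (ENSMUSG00000002083, chr7:16308393-16318205, plus strand), which encodes PUMA, fell most with inflammation. It was at 13.4, 11.3, 18.1 and 17.1 CPM in resting CCR2+ve libraries and 6.57, 5.50, 7.45 and 6.63 in resting CCR1/2+ve libraries. After the cytokine pumps it was at 1.73, 1.77, 2.23 and 1.85 CPM in CCR2+ve and 0.582, 2.30 and 2.81 in CCR1/2+ve libraries. The 4 resting CCR2+ve libraries were above the 4 resting CCR1/2+ve libraries, and all 8 were above the 7 inflamed ones. Between the resting populations the log2 fold change was −1.12 (SE 0.16, adjusted p = 0.000472), or 2.17-fold lower in CCR1/2+ve monocytes. With inflammation it was −3.05 (SE 0.20, adjusted p = 8.88e-09) in CCR2+ve and −1.89 (SE 0.41, adjusted p = 0.00263) in CCR1/2+ve monocytes. The exons of Bbc3 are 67.1% G and C, and the 28 genes with at least 65% had a median log2 fold change of −4.16 in the first and −4.78 in the second of these comparisons, with 89.3% of them lower in each. With a correction for GC content the values were −1.26 (adjusted p = 4.78e-05) and 0.12 (adjusted p = 0.774), so that the fall in CCR1/2+ve monocytes was lost. The difference between the resting populations kept its call with it, at −1.01 (adjusted p = 0.00112).

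**Figure D4:**
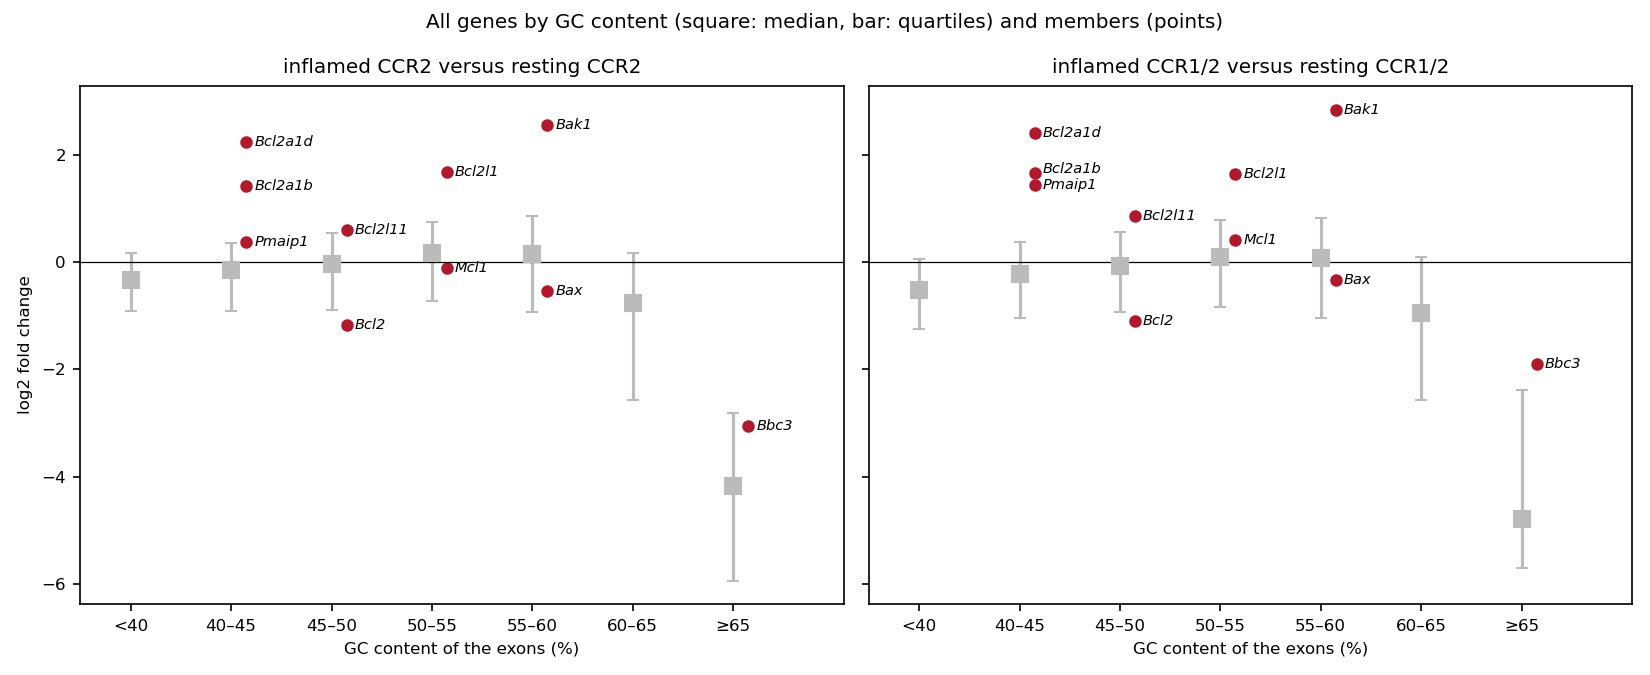
Log2 fold change, inflamed minus resting, against the GC content of the exons in both populations, with squares and bars for the median and quartiles of all genes with a mean of at least 10 reads and points for the members. Genes of at least 65% GC have medians of −4.16 and −4.78, and Bbc3 is the member in that range, whereas Bak1 lies far above the median of its range.

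Pmaip1 (ENSMUSG00000024521, chr18:66458533-66465565, plus strand) encodes NOXA. Its levels were 73.5, 42.2, 48.2 and 64.1 CPM in resting CCR2+ve libraries and 26.1, 16.9, 21.9 and 22.0 in resting CCR1/2+ve libraries. The values of inflamed libraries were 48, 60.8, 98.3 and 103 CPM in CCR2+ve and 35.3, 72.0 and 84.9 in CCR1/2+ve libraries. The resting CCR2+ve libraries were all above the resting CCR1/2+ve ones, and the inflamed monocyte libraries spread more widely than the resting ones. It was 2.49-fold lower in resting CCR1/2+ve than in resting CCR2+ve monocytes, −1.32 (SE 0.17, adjusted p = 0.000302), with p = 0.0286 in the exact two-sided permutation test (n = 4 and 4). With inflammation it rose 2.71-fold in CCR1/2+ve monocytes, 1.44 (SE 0.28, adjusted p = 0.00248), and its log2 fold change was 0.38 (SE 0.24, adjusted p = 0.231) in CCR2+ve monocytes. The second was called with a correction for GC content (0.73, adjusted p = 0.0245) and without inflamed replicate 1 (0.55, adjusted p = 0.0455). That correction also moved the median of genes over 1 CPM from 0.013 to 0.25.

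Bcl2l11 (ENSMUSG00000027381, chr2:128126038-128162547, plus strand), which encodes BIM, was lower in resting CCR1/2+ve monocytes and rose with inflammation in both populations. It was at 32.0, 26.8, 32.7 and 35.7 CPM in resting CCR2+ve libraries and 20.4, 19.2, 20.5 and 21.3 in resting CCR1/2+ve libraries. Inflamed libraries held 46.5, 46.6, 63.4 and 44.2 CPM in CCR2+ve and 31.0, 41.6 and 48.2 in CCR1/2+ve libraries. The ranges did not overlap in any of these 3 comparisons. The log2 fold changes were −0.57 (SE 0.10, adjusted p = 0.00152) between the resting populations, 0.59 (SE 0.13, adjusted p = 0.00205) in CCR2+ve and 0.86 (SE 0.15, adjusted p = 0.0006) in CCR1/2+ve monocytes with inflammation.

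**Figure D5:**
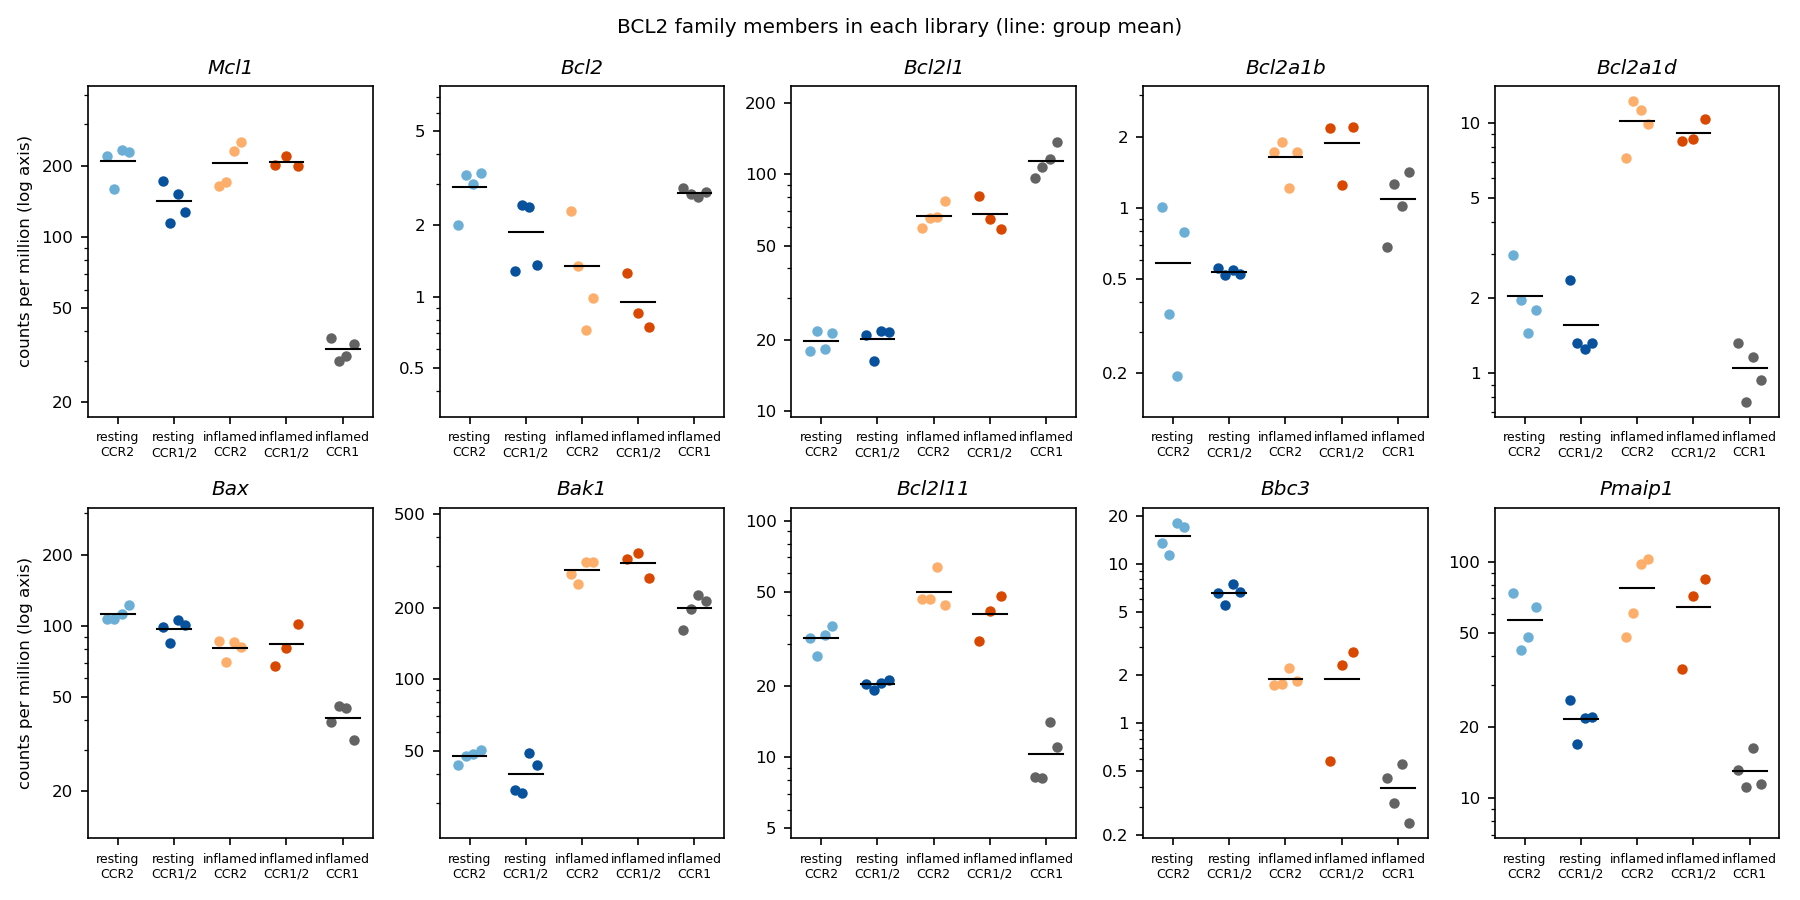
CPM of each member (log axes) in each of the 19 libraries, with a line at the group mean. Bak1 and Bcl2l1 are higher in every inflamed than in every resting library, Bbc3 is lower in every inflamed library, and Mcl1 is lowest in the libraries labelled inflamed CCR1, at 30.0 to 37.3 CPM.

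The libraries labelled inflamed CCR1 differed from both inflamed monocyte groups in 9 of the 10 members, 7 lower and 2 higher, where 25.4% and 22.7% of all genes were lower and higher than in CCR2+ve monocytes and 23% and 20.2% than in CCR1/2+ve monocytes. The 2 comparisons share these 4 libraries. Beside these values all 14 monocyte genes were lower than in inflamed CCR2+ve monocytes and 11 of 12 mature neutrophil genes and 5 of 5 early granule genes higher, with 6 of 9 dendritic cell genes lower, and the part of this in the members' differences was not tested. Mcl1 was at 37.3, 30.0, 31.3 and 35.4 CPM, below every other library, 6.10-fold lower than in inflamed CCR2+ve monocytes, −2.61 (SE 0.16, adjusted p = 4.10e-10), and 6.17-fold lower than in inflamed CCR1/2+ve monocytes, −2.63 (SE 0.11, adjusted p = 4.36e-10). Bcl2l1 was highest here, at 96.7, 107, 116 and 137 CPM, with log2 fold changes of 0.77 (SE 0.13, adjusted p = 6.02e-05) and 0.75 (SE 0.14, adjusted p = 0.00048). Bcl2 was at 2.87, 2.71, 2.63 and 2.78 CPM and higher than in both groups, 1.04 (SE 0.33, adjusted p = 0.0153) and 1.53 (SE 0.30, adjusted p = 0.00081). The survival genes thus moved in both directions, with Mcl1 lower and Bcl2l1 and Bcl2 higher.

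The Bcl2a1 sum was at 5.87, 6.42, 6.01 and 6.41 CPM in the libraries labelled inflamed CCR1, −1.90 (SE 0.19, adjusted p = 2.72e-07) against inflamed CCR2+ve monocytes. Of the copies, whose difference was not tested, Bcl2a1a was at 4.03 ± 0.252 against 11.4 ± 4.57 CPM (SD, n = 4 and 4). Bcl2a1d had a log2 fold change of −3.26 (SE 0.26, adjusted p = 1.08e-08) and Bcl2a1b of −0.58 (SE 0.33, adjusted p = 0.171). All 3 BH3-only genes were lower than in inflamed CCR2+ve monocytes, Pmaip1 at 11.2 to 16.4 CPM with −2.56 (SE 0.24, adjusted p = 1.24e-06), Bcl2l11 at 8.14 to 14.0 CPM with −2.27 (SE 0.18, adjusted p = 1.64e-08) and Bbc3 at 0.235 to 0.555 CPM with −2.25 (SE 0.37, adjusted p = 7.91e-05). Bbc3 rested on 5 to 12 reads per library there. Of the effectors, Bax was at 39.1, 46.1, 44.9 and 32.8 CPM, −0.99 (SE 0.13, adjusted p = 6.97e-06), and Bak1 at 162, 198, 228 and 215 CPM, −0.53 (SE 0.12, adjusted p = 0.00132), which was below the inflamed monocytes and above all 8 resting libraries. Against inflamed CCR1/2+ve monocytes the log2 fold changes were −3.12 for Bcl2a1d, −0.78 for Bcl2a1b (adjusted p = 0.0962), −2.30 for Pmaip1, −1.97 for Bcl2l11, −2.28 for Bbc3, −1.04 for Bax and −0.63 for Bak1.

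Other genes of the pathway were followed through 6 lists, and each count stands beside the shares of all genes given above. Of the other BCL2 family genes tested, 0 of 10 were higher and 1 lower in resting CCR1/2+ve monocytes (median log2 fold change −0.051, beside 0.032 over all genes), 4 of 10 were higher and 1 lower with inflammation in CCR2+ve monocytes (median 0.26, beside −0.10) and 4 of 10 were higher and 0 lower in CCR1/2+ve monocytes (median 0.60, beside −0.25). The 1 lower gene of the resting populations was Bmf, another BH3-only gene, at 11.1 ± 2.47 against 27.2 ± 7.93 CPM (SD, n = 4 and 4), −1.22 (SE 0.19, adjusted p = 0.00107). Bad, a BH3-only gene that survival signals hold inactive by phosphorylation, rose with inflammation from 66.3 ± 4.35 to 146 ± 4.59 CPM in CCR2+ve monocytes, 1.07 (SE 0.10, adjusted p = 2.39e-07), and from 64.1 ± 12.0 to 152 ± 6.09 CPM in CCR1/2+ve monocytes, 1.12 (SE 0.12, adjusted p = 9.48e-06). Bcl2a1a rose by 2.69 and 2.87 on the log2 scale, and Bnip3, which is known from hypoxia and mitophagy, fell in CCR2+ve monocytes, −0.57 (SE 0.17, adjusted p = 0.0120).

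Of the 13 apoptosome and caspase genes, 2 of 13 were higher and 4 lower in resting CCR1/2+ve monocytes (median −0.039), 6 of 13 were higher and 2 lower with inflammation in CCR2+ve monocytes (median 0.20) and 7 of 13 were higher and 2 lower in CCR1/2+ve monocytes (median 0.52). Casp6, an executioner caspase, was lower in resting CCR1/2+ve monocytes, −0.45 (SE 0.077, adjusted p = 0.00179), and rose from 75.1 ± 4.78 to 334 ± 52.3 CPM with inflammation in CCR2+ve monocytes, 2.08 (SE 0.11, adjusted p = 1.23e-09), and from 52.2 ± 4.40 to 373 ± 109.8 CPM in CCR1/2+ve monocytes, 2.7 (SE 0.15, adjusted p = 1.03e-07). Casp9, the initiator caspase that the apoptosome activates, rose by 1.09 and 1.15 on the log2 scale, whereas Apaf1, the scaffold of the apoptosome, fell, at −0.42 and −0.45. Endog, a mitochondrial nuclease, was lower in resting CCR1/2+ve monocytes (−1.07, SE 0.22, adjusted p = 0.00588) and was at 0 to 0.186 and 0.0485 to 0.0878 CPM in the inflamed CCR2+ve and inflamed CCR1/2+ve libraries against 5.0 to 6.61 and 1.84 to 3.64 in the resting ones, with a GC content of 64.3%. Htra2 and Cycs, which encode a protease and cytochrome c released from mitochondria, were higher in resting CCR1/2+ve monocytes, by 0.42 and 0.32 on the log2 scale.

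Of the inhibitors of apoptosis, 1 of 5 were higher and 1 lower in resting CCR1/2+ve monocytes (median 0.083), namely Birc5, the survivin gene that is transcribed in dividing cells (0.91, SE 0.10, adjusted p = 0.000121), and Birc3 (−0.58, SE 0.10, adjusted p = 0.00183). With inflammation 1 of 5 were higher and 1 lower in CCR2+ve monocytes (median 0.021), Birc6 at 0.32 and Xiap, the direct inhibitor of caspases, at −0.41, and 1 of 5 were higher and 1 lower in CCR1/2+ve monocytes (median −0.072), Birc3 at 0.58 and Xiap at −0.52. Of the death receptor genes, 1 of 12 were higher and 5 lower in resting CCR1/2+ve monocytes (median −0.30), among them the receptors Tnfrsf1b (−0.71, SE 0.11, adjusted p = 0.000739) and Fas (−0.49, SE 0.12, adjusted p = 0.0149) on the lower and Mlkl, the effector of necroptosis (0.49, SE 0.086, adjusted p = 0.00205), on the higher side. With inflammation 2 of 12 were higher and 3 lower in CCR2+ve (median −0.12) and 4 of 12 were higher and 3 lower in CCR1/2+ve monocytes (median 0.19). The adaptors Tradd and Fadd fell most, Tradd at −3.17 and −3.61 and Fadd at −2.24 and −2.39 on the log2 scale, with GC contents of 59.2% and 51.2%, and the adaptor Traf2 rose by 0.64 and 0.77. Mlkl rose by 0.31 in CCR2+ve monocytes and Tnfsf10, the TRAIL gene, by 0.89 in CCR1/2+ve monocytes.

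Among genes that act on MCL1 stability or BIM transcription, 0 of 7 were higher and 2 lower in resting CCR1/2+ve monocytes (median −0.076). These were Foxo1 (−1.06, SE 0.25, adjusted p = 0.0111) and Foxo3 (−0.36, SE 0.11, adjusted p = 0.0413). Bcl2l11 was lower in the same libraries. In CCR2+ve monocytes Bcl2l11 rose with inflammation, with Foxo1 at 8.72 against 8.95 CPM and Foxo3 at 32.8 against 33.7 CPM. A link of these genes to Bcl2l11 was not tested. With inflammation 1 of 7 were higher and 2 lower in CCR2+ve (median −0.10) and 2 of 7 were higher and 2 lower in CCR1/2+ve monocytes (median 0.08). Huwe1 and Fbxw7 both encode ubiquitin ligases of MCL1, and they moved apart: Huwe1 rose by 0.86 and 0.66 and Fbxw7 fell, at −1.41 and −1.03 on the log2 scale. Ddit3 fell in CCR2+ve monocytes, −0.49 (SE 0.17, adjusted p = 0.0248), and in CCR1/2+ve monocytes Foxo3 rose by 0.38 and Atf4 fell by 0.60. Of the p53 target genes other than the members, 0 of 13 were higher and 5 lower in resting CCR1/2+ve monocytes (median −0.46). The largest were Sesn1 (−0.89, SE 0.17, adjusted p = 0.00297) and Ei24 (−0.65, SE 0.11, adjusted p = 0.00161). Mdm2 was at 72.3 against 71.7 CPM and Gadd45a at 8.83 against 8.02 CPM. Bbc3 and Pmaip1 were lower in the same libraries, and a part of p53 in this was not tested. With inflammation 2 of 13 were higher and 6 lower in CCR2+ve (median −0.21) and 3 of 13 were higher and 6 lower in CCR1/2+ve monocytes (median −0.32). Cdkn1a, the p21 gene, rose by 0.55 and 0.84 and the nuclease gene Aen by 0.76 and 0.90 on the log2 scale, while Gadd45a fell, at −3.62 and −3.46, with a GC content of 57.4%. Phlda3, with a GC content of 60.2%, was at 0 to 0.0484 and 0 to 0.0439 CPM in the inflamed groups against 0.571 to 1.05 and 0.122 to 0.745 in the resting ones. The 308 genes of 60 to 65% GC had median log2 fold changes of −0.76 and −0.95 in these comparisons.

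In inflamed CCR1/2+ve against inflamed CCR2+ve monocytes, 0 genes of any of the 6 lists were called, and in the interaction likewise 0. In the libraries labelled inflamed CCR1 against inflamed CCR2+ve monocytes, 1 of 10 were higher and 5 lower of the other BCL2 family genes (median −0.93), 3 of 13 were higher and 6 lower of the apoptosome and caspase genes (−0.35), 1 of 5 were higher and 2 lower of the inhibitors of apoptosis (−0.20), 3 of 12 were higher and 5 lower of the death receptor genes (−0.57), 0 of 7 were higher and 2 lower of the genes of MCL1 turnover and BIM transcription (−0.33) and 1 of 13 were higher and 7 lower of the p53 target genes (−1.21), beside a median of −0.0093 over all genes. Bmf was at 1.46 ± 0.735 against 31.9 ± 6.92 CPM, −4.45 (SE 0.29, adjusted p = 6.27e-09). Casp6 was at 15.9 ± 1.46 against 334 ± 52.3 CPM, −4.39 (SE 0.13, adjusted p = 7.25e-14), whereas Htra2 was higher (1.17 on the log2 scale). Birc3 (−2.0) and Xiap (−0.94) were lower and Birc5 higher (0.48). Fas (−2.33) and Tnfsf10 (−2.63) were lower and Fadd (1.27) and Traf2 (0.51) higher. Foxo3 was lower (−1.11), and Foxo1 was at 0 to 0.141 CPM against 5.86 to 12.9. Cdkn1a was at 2.98 ± 0.539 against 87.8 ± 14.2 CPM, −4.87 (SE 0.17, adjusted p = 4.29e-13), Zmat3 at 0 to 0.136 against 2.74 to 5.08 CPM, and Mdm2 was higher (0.70). Bcl2l14 was at 0.0942 to 0.543 CPM against 0.215 to 1.94, and Bcl2l15 had 10 to 20 reads per library and 0 in inflamed CCR2+ve libraries, at least 5.15-fold higher when set against 3 reads per library, with the same list median at that bound.

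Against inflamed CCR1/2+ve monocytes the same 4 libraries gave 1 of 10 were higher and 5 lower (−0.79), 1 of 13 were higher and 6 lower (−0.32), 0 of 5 were higher and 2 lower (−0.19), 1 of 12 were higher and 5 lower (−0.18), 1 of 7 were higher and 3 lower (−0.30) and 1 of 13 were higher and 7 lower (−0.68) for the 6 lists in that order, with the median in parentheses. Bmf (−3.90), Bnip3 (−1.61), Casp6 (−4.55), Birc3 (−1.96), Xiap (−0.73), Fas (−2.67), Tnfsf10 (−2.58), Foxo3 (−1.23) and Cdkn1a (−4.58) were lower on the log2 scale, and Fadd (1.31), Atf4 (0.61) and Mdm2 (0.88) were higher.

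The likeness of other genes to 2 members was described over the 19 libraries and 7685 genes with a mean of at least 10 CPM, as the correlation of log2(CPM + 1). For Bbc3, whose group means spanned the widest range of the 10 members (3.50 on that scale), the most alike were Mfsd5 (r = 0.983), Ypel3 (r = 0.982) and Klf2 (r = 0.981). For Bak1, the member with the highest level per kb in the 3 inflamed groups, they were Uba1 (r = 0.997), Emc1 (r = 0.995) and Ogdh (r = 0.995). These correlations rest on the differences between 5 groups and on libraries that may share a preparation, and they carry no test.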

How the data were processed

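RNA of sorted cells was isolated with a column kit, and libraries were prepared with a low input kit that does not mark strand and sequenced as paired ends. The authors processed the reads with fastp and aligned them with STAR (version 2.7.10a per the labels) to GRCm38, with only unique alignments of 35 or more matched bases retained. The deposited values are raw read counts per gene of Ensembl release 91, not normalized, and the strand counted is not given in the sources used here. A further column (1) matched no sample record and was not used. Of 50854 genes, 23256 had no read, and 50744 identifiers matched GENCODE M21, from which symbols, positions, exon lengths, GC content and coding sequences were taken. Groups follow the titles of the samples.

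The members and lists were chosen with earlier results of these data known. The 18652 genes averaging 1 read or more across the 19 libraries were tested with edgeR 4.0.16 in R 4.3.3 (TMM, robust quasi-likelihood F test, two-sided) on the libraries of the 2 groups compared, with Benjamini-Hochberg adjustment over these genes. A gene was called at an adjusted p below 0.05. The interaction was fitted on the 15 monocyte libraries. SEs are the log2 fold change over the root of F. CPM use TMM factors over all 19 libraries. For single members mean CPM was also compared by exact permutation (two-sided). The counts carry no molecular identifiers, so read floors cover counting error only. The fits were tested on simulated data. From each list and comparison, up to 2 higher and 2 lower genes with the largest log2 fold change among those called are named, except for some that are not reported here. The marker lists were monocyte core, early granule, mature neutrophil, B cell, T and NK cell, dendritic cell, erythroid, basophil and eosinophil, and tissue macrophage genes.

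The alternatives tried were no filter, filterByExpr, DESeq2 1.42.0, RLE size factors in edgeR, 1 fit of all 19 libraries, replicate numbers as a block, a GC content offset alone and with the block, a cutoff of 2-fold, the Bcl2a1 sum, and each library left out. Pairing by replicate number was checked from the correlation of deviations from the group means over 7685 genes. Same-numbered libraries gave 0.334 to 0.594 between the resting populations (other numbers −0.398 to 0.200) and 0.161 to 0.287 between inflamed CCR1 and inflamed CCR2 (other numbers −0.293 to 0.122), which was taken as pairing in these comparisons from the correlation only. In the other comparisons at least 1 pair was under 0.1.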

Additional observations from a re-analysis of the deposited data

Results flagged for a closer look

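Among the groups of 4 libraries, 3 values stood apart from the rest of their group by the gap between the extreme library and its nearest neighbour, taken as a share of the group's range. Such a gap passes the 95% limit of 0.829 by chance in about 1 in 20 groups, and 44 were examined. Bcl2l1 in resting CCR1/2+ve monocytes was at 20.9, 16.3, 21.8 and 21.5 CPM, with replicate 2 low and a gap of 0.844 of the range. Bcl2l11 in inflamed CCR2+ve monocytes was at 46.5, 46.6, 63.4 and 44.2 CPM, with replicate 3 high and a gap of 0.874. Bcl2a1d in resting CCR1/2+ve monocytes was at 2.36, 1.31, 1.25 and 1.33 CPM, with replicate 1 high and a gap of 0.936. With that library left out, each of these 3 genes had the same calls in the comparisons that use its group.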

How the results depend on the processing

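Of 574 values of single members under other settings, 544 kept their direction and their side of the threshold, as did 556 of 600 with 1 library left out. The count of members called between the resting populations, 4, was 2 with a cutoff of 2-fold and 3 to 4 with a library left out, and that of the interaction, 0, was 0 to 1 with a library left out. The 1 was Bbc3 at 1.54 (adjusted p = 0.0307) without inflamed CCR1/2+ve replicate 2. Where the replicate numbers pair the samples, the replicate block left the counts at 4 and 9 and changed no call of a member. Elsewhere the samples share only a number, and the block moved the count in inflamed against resting CCR1/2+ve monocytes from 9 to 10, with Bax at −0.34 (adjusted p = 0.0483), and no other. The GC content offset moved the median of genes over 1 CPM from 0.013 to 0.25 in CCR2+ve and from −0.014 to 0.27 in CCR1/2+ve monocytes with inflammation, and the fit of all 19 libraries moved the second to 0.12. Read against the shifted median, Bax with the offset lay below it in CCR2+ve and above it in CCR1/2+ve monocytes, and Bbc3 lay below it in both.

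With the offset, log2 fold changes turned for Bax (0.34, and 0.36 with the block) and Bbc3 (0.12 and 0.063) in CCR1/2+ve monocytes with inflammation and for Mcl1 (0.079 and 0.069) in CCR2+ve monocytes. The other values that turned belonged to members that were not called. Between the resting populations Bcl2a1b was 0.12 with the block and 0.027 with both. Between the inflamed populations Mcl1 was 0.0061 with DESeq2, 0.0061 with RLE, 0.015 with no filter, 0.011 with filterByExpr, 0.015 in the fit of all libraries and 0.033 with the offset, Bcl2l1 was −0.057 and Bbc3 −0.21 with the block, and the Bcl2a1 sum was −0.034 against 0.17 for Bcl2a1b. In the interaction Bcl2l1 was 0.0049 in the fit of all libraries and 0.00081 with the offset. With a library left out, the log2 fold change of Bcl2a1b between the resting populations ranged over −0.34 to 0.37, that of Mcl1 with inflammation in CCR2+ve monocytes over −0.23 to 0.013, those of Mcl1, Bcl2l1, Bax, Bak1, Bbc3 and Pmaip1 between the inflamed populations over −0.10 to 0.11, −0.13 to 0.12, −0.12 to 0.17, −0.0017 to 0.20, −0.39 to 0.43 and −0.53 to 0.013, and those of Bcl2, Bcl2a1b, Bcl2a1d and Bax in the interaction over −0.20 to 0.43, −0.19 to 0.50, −0.11 to 0.41 and −0.031 to 0.28. The causes were not tested. Depth limits Bcl2a1b, with 5 to 50 reads per library, and Bbc3 in inflamed libraries, with 5 to 64.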

Other observations

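Summed B cell genes were at 18.5 to 42.2 CPM over all groups, most of it Cd79b, at 16.2 to 41.8 CPM. Summed T and NK cell genes were at 10.3 to 15.9 CPM in resting CCR2+ve and 30.9 to 81.5 in resting CCR1/2+ve monocytes. Most of both was Nkg7, at 6.17 to 12.6 and 29.7 to 80.1 CPM. Of the 9 genes on this list, 1 was called higher and 3 lower in the resting CCR1/2+ve libraries. The list's median log2 difference there was −1.31, so the larger sum does not stand for the list. The inflamed sums were 5.53 to 6.68 CPM in CCR2+ve and 7.20 to 8.39 in CCR1/2+ve monocytes. In the libraries labelled inflamed CCR1 the sum was 1361 to 1708 CPM, nearly all of it Nkg7. Cd8a, Cd3g and Ncr1 were at 3 reads or fewer in every one of these libraries. Summed tissue macrophage genes were at 437 to 525 CPM in the same libraries, with Vcam1 making up most of it, and summed dendritic cell genes at 4.97 to 6.41 CPM.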
